A study of Mus musculus with 24 samples.

Results

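The 4 genes described here encode fibroblast growth factor 21 (Fgf21), growth differentiation factor 15 (Gdf15), the FGF21 co-receptor β-Klotho (Klb) and FGF receptor 1 (Fgfr1). They were listed by name and found by their Ensembl identifiers, as 4 of the 53465 genes in the table of counts. The list was chosen by values measured in these same libraries. The value known for one of its genes was the lower Fgf21 level of aKO cultures treated with siNS, so that difference is given below as a description, without a test. All 4 genes were among the 14785 that passed the filter on low counts.

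Poly(A) RNA was sequenced from 24 cultures of mouse adipocytes grown from stromal vascular cells, with 3 libraries in each of 8 groups. The aKO genotype carried floxed Senp2 alleles and an Adipoq Cre transgene, while the control genotype, Cont, carried the floxed alleles alone. Senp2 encodes a protease that removes SUMO from proteins, and the Adipoq promoter is active in fat cells, so precursors and other cells of an aKO culture would keep the gene. Cultures of each genotype received siC/EBPb, an siRNA against C/EBPβ (gene Cebpb), or siNS, a name that the labels do not explain. Cells came from inguinal (iWAT) or epididymal (eWAT) fat and were induced for 2 days with dexamethasone, isobutylmethylxanthine and insulin, then kept for 5 days with insulin alone. All 8 groups share the floxed alleles, an siRNA treatment and this hormone mix. The labels give no ages. They leave unsaid whether the 3 libraries in each group came from different mice or wells, so every p-value covers the spread among these libraries, which may be technical.

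FGF21 is a hormone of the fasting and stress response, made mainly in the liver and also in fat. It acts on cells that carry both FGFR1, a receptor tyrosine kinase, and β-Klotho, which binds FGF21 and confers specificity, and in white fat it is known for raising glucose uptake and thermogenic genes. GDF15 is a stress hormone of the TGF-β superfamily that reduces appetite through the receptor GFRAL in the hindbrain. Transcription of Fgf21 and Gdf15 is known to be raised by the integrated stress response, in which phosphorylation of eIF2α leads to more of the factors ATF4 and CHOP. C/EBPβ is a transcription factor of early fat cell differentiation and can pair with ATF4 on composite DNA elements.

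The promoter windows are shown because the siRNA was directed against a C/EBP factor, with the different response of the ligand genes already seen. Whether the motifs searched have a part in that response was not tested. Each runs from 250 bases before to 50 bases after the annotated start, as given by RefSeq on GRCm38.p6, 5′ to 3′ on the strand of the gene. Capitals mark a match to the C/EBP-ATF composite motif TGATGNAA, searched on both strands. The Fgf21 window lies at chr7:45615441-45615740 on the minus strand, the Gdf15 window at chr8:70632407-70632706 on the minus strand, and the Klb window at chr5:65348161-65348460 on the plus strand.
Fgf21: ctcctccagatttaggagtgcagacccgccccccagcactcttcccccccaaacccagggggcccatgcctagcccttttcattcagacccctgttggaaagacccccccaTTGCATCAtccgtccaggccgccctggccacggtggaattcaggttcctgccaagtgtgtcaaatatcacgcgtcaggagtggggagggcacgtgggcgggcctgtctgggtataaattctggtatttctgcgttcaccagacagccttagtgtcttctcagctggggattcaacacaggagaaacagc
Gdf15: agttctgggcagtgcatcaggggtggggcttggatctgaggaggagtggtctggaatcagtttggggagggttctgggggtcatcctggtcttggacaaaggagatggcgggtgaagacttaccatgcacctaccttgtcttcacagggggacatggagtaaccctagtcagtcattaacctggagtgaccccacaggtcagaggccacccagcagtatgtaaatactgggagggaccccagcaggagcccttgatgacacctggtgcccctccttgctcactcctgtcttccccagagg
Klb: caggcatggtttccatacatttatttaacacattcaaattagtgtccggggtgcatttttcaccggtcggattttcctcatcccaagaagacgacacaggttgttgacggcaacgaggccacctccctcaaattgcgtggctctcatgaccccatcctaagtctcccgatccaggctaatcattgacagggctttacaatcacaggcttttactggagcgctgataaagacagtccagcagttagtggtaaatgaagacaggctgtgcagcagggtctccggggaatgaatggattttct
The Fgf21 window held 1 match, TTGCATCA, which reads TGATGCAA on the opposite strand and spans bases -139 to -132 from the start. This motif was found in 3.91% of 32544 promoter windows of the same length. The C/EBP motif, TTNNGCAA or TTGCNNAA on either strand, was found in 10.8% of them, and the Fgf21, Gdf15 and Klb windows held none. A second Gdf15 window at chr8:70632046-70632345 held neither motif.

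On GRCm38, Fgf21 (ENSMUSG00000030827) lies on the minus strand of chromosome 7 from 45613886 to 45615490. Gdf15 (ENSMUSG00000038508) lies on the minus strand of chromosome 8 from 70629393 to 70632456. Klb (ENSMUSG00000029195) lies on the plus strand of chromosome 5 from 65348314 to 65384007, and Fgfr1 (ENSMUSG00000031565) on the plus strand of chromosome 8 from 25513654 to 25575718. Fgfr1 overlaps the antisense gene Gm16159 by 7423 bases, and no source at hand says whether counting used strand, so reads of that stretch are uncertain.

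Gene counts ranged from 8435494 to 15388744 in 23 libraries. In iWAT aKO siNS replicate 2 they came to 603585, with 93.3% of its reads not aligned, against 16.8% to 27.6% in the others. Levels are given as CPM, the count scaled to the TMM-adjusted library size and to the same round total in each library. In the shallow library 1 read is worth 1.97 CPM. A count of 0 is taken here to allow up to 5.92 CPM, the value of 3 reads. The exact 95% Poisson interval of that count reaches further, to 7.28 CPM. These limits cover counting error only. Cebpb, the siRNA target, averaged 18.5 CPM in iWAT aKO and 36.0 CPM in iWAT Cont with siC/EBPb, against 114 and 124 CPM with siNS. In eWAT it averaged 27.4 CPM in aKO and 50.3 CPM in Cont with siC/EBPb, against 151 and 167 CPM with siNS. With siC/EBPb it was lower in aKO than in Cont by 0.97 ± 0.19 on the log2 scale in iWAT (SE, edgeR adjusted p = 0.00155) and 0.88 ± 0.17 in eWAT (adjusted p = 0.00134). Senp2 averaged between 47.5 and 54.4 CPM in the 8 groups. Its counts include reads outside the floxed exons and cells without Cre, so they check nothing about the genotype labels.

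The cultures expressed the adipocyte gene Adipoq, at 156 CPM in eWAT aKO siNS and 69.6 CPM in eWAT Cont siNS, beside the precursor gene Pdgfra, at 786 and 626 CPM. The macrophage gene Lyz2 stood at 1501 CPM in eWAT Cont siNS, and the T cell gene Cd3e was at 0 counts in all libraries. Wt1, which is known to mark visceral fat and its mesothelium, did not separate the depots, at 14.4 ± 0.24 CPM in iWAT and 15.1 ± 0.82 CPM in eWAT Cont siNS cultures (SD, n = 3 each). It was lower in aKO than in Cont by 3.29 ± 0.18 on the log2 scale in iWAT and 3.23 ± 0.14 in eWAT with siNS (edgeR adjusted p = 1.06e-12 and 1.08e-14).

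The first question was what the knockdown of C/EBPβ did to the ligand genes. Fgf21 rose with siC/EBPb in both depots and both genotypes. In iWAT aKO cultures it stood at 2.83, 3.03 and 2.27 CPM with siC/EBPb (37, 43 and 27 reads), against 0.344, 0 and 0.228 CPM with siNS (4, 0 and 3 reads). In iWAT Cont cultures it stood at 2.75, 4.97 and 4.97 CPM with siC/EBPb, against 1.48, 0.989 and 0.841 CPM with siNS. The lowest siC/EBPb library was above the highest siNS library in each pair of groups. In iWAT aKO this rests on the 2 deeper siNS libraries, since 0 reads in the shallow one allow up to 5.92 CPM.

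In eWAT aKO cultures Fgf21 stood at 3.99, 3.91 and 3.18 CPM with siC/EBPb (61, 53 and 46 reads), against 0.461, 0.744 and 0.518 CPM with siNS (6, 11 and 8 reads). In eWAT Cont cultures it stood at 5.09, 4.89 and 5.72 CPM with siC/EBPb, against 1.64, 1.08 and 1.49 CPM with siNS. These groups did not overlap either. The number of reads stayed below 90 in every library.

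**Figure D1:**
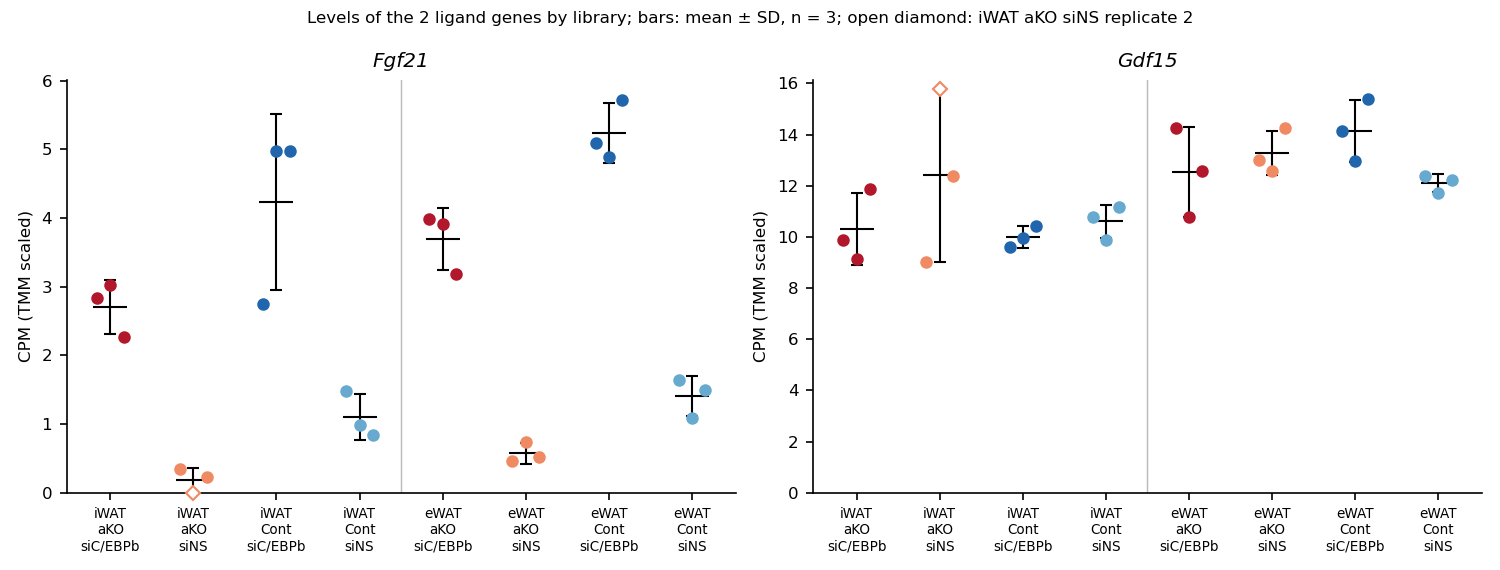
Levels of Fgf21 and Gdf15 in CPM (vertical axes, from 0) in the 8 groups (horizontal axis); points are libraries, bars the mean ± SD of 3, and the open diamond is the shallow library. For Fgf21 the 12 siC/EBPb libraries lie between 2.27 and 5.72 CPM and the 12 siNS libraries between 0 and 1.64 CPM; Gdf15 lies between 9.02 and 15.8 CPM throughout.

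The log2 fold change of Fgf21 was 3.26 ± 0.41 in iWAT aKO (SE, edgeR quasi-likelihood test, adjusted p = 4.76e-07) and 1.91 ± 0.26 in iWAT Cont (adjusted p = 2.23e-06). It was 2.66 ± 0.28 in eWAT aKO (edgeR adjusted p = 1.12e-08) and 1.89 ± 0.22 in eWAT Cont (adjusted p = 1.15e-07). Without the shallow library the iWAT aKO value was 3.24 ± 0.42 (edgeR adjusted p = 1.86e-07). These contrasts share the siNS libraries with the genotype difference by which the list was chosen, so they are not independent of that choice, and the low aKO siNS levels enter the larger aKO values. The values of all libraries are 9.55-fold, 3.75-fold, 6.30-fold and 3.71-fold higher levels with siC/EBPb, in the order above. Of the 14785 genes tested, 13 had a larger log2 fold change than Fgf21 in iWAT aKO, 47 in iWAT Cont, 25 in eWAT aKO and 41 in eWAT Cont. The rises passed the threshold under each of the 13 alternative analyses run in iWAT aKO and 14 in each other contrast.

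Of the 4 genes, 2 were called in iWAT aKO (Fgf21 and Klb), where 31.3% of all tested genes were called. In iWAT Cont 1 of 4 was called (Fgf21), against 24.3% of all genes. In eWAT aKO 2 of 4 were called (Fgf21 and Klb), against 35.7%, and in eWAT Cont 1 of 4 (Fgf21), against 26.8%.

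Cell type markers moved with the same contrast. The summed level of 8 leukocyte markers was 63.5 to 143 CPM in iWAT aKO and 265 to 290 CPM in iWAT Cont with siC/EBPb, against 716 to 1362 and 1526 to 2108 CPM with siNS. In eWAT it was 76.4 to 164 CPM in aKO and 276 to 323 CPM in Cont with siC/EBPb, against 1353 to 1415 and 1614 to 2221 CPM with siNS. All 7 leukocyte markers tested fell in each of the 4 contrasts. Fewer cells of a type and less RNA per cell cannot be told apart in such bulk samples.

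Of 10 adipocyte markers, 7 fell with siC/EBPb in iWAT aKO, 3 in iWAT Cont, 8 in eWAT aKO and 3 in eWAT Cont, and 0 rose by edgeR. Of 6 mural markers, such as the smooth muscle gene Myh11, 5 rose in each of the 4 contrasts. Of 6 precursor markers, 5 fell in iWAT aKO, 2 in iWAT Cont, 5 in eWAT aKO and 2 in eWAT Cont. Of all genes 31.3%, 24.3%, 35.7% and 26.8% were called in that order. The part of these cell markers in the Fgf21 result was not tested.

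**Figure D2:**
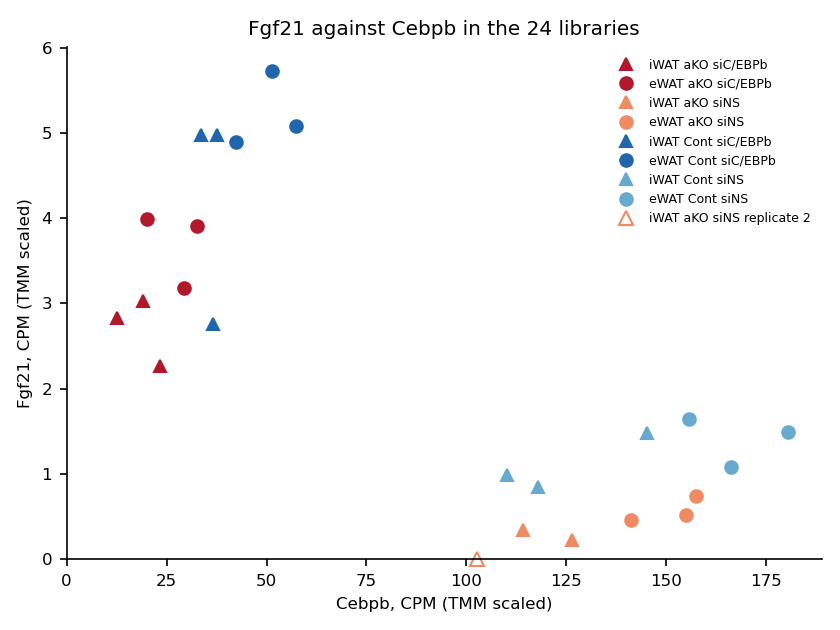
Fgf21 (vertical axis) against Cebpb (horizontal axis), both in CPM, in the 24 libraries; triangles are iWAT, circles eWAT, colours the genotype and siRNA, and the open triangle the shallow library. The libraries form a siC/EBPb cloud at 12.7 to 57.3 CPM of Cebpb and a siNS cloud at 103 to 181 CPM, with Fgf21 higher in the first.

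The second question was how the genotypes differed. With siNS, Fgf21 averaged 0.191 ± 0.175 CPM in iWAT aKO and 1.10 ± 0.33 CPM in iWAT Cont (SD, n = 3 each). In eWAT it averaged 0.574 ± 0.150 CPM in aKO and 1.41 ± 0.29 CPM in Cont. The aKO libraries lay below all Cont libraries of their depot, with log2 fold changes of -2.0 ± 0.51 in iWAT and -1.27 ± 0.33 in eWAT (SE). These are the values the list was chosen by, so no test is given, and 7 reads in 3 libraries carry the iWAT aKO level. Without the shallow library the iWAT value was -1.98 ± 0.52. Its 0 reads allow up to 5.92 CPM, above every iWAT Cont library with siNS. The lack of overlap in iWAT therefore rests on the 2 deeper aKO libraries. Of the 3 other genes Klb was called in each depot by edgeR, where 15.2% of all genes were called in iWAT and 20.4% in eWAT.

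With siC/EBPb the genotype difference in Fgf21 was smaller. In iWAT the aKO libraries at 2.27 to 3.03 CPM overlapped the lowest Cont library at 2.75 CPM, and the log2 fold change was -0.66 ± 0.21 (edgeR adjusted p = 0.0404). That call was lost when any of 5 single libraries was left out (iWAT aKO siC/EBPb replicate 1, 2 or 3, or Cont siC/EBPb replicate 2 or 3), with adjusted p up to 0.217. In eWAT the aKO libraries at 3.18 to 3.99 CPM lay below the Cont libraries at 4.89 to 5.72 CPM, but the log2 fold change of -0.50 ± 0.18 did not pass (edgeR adjusted p = 0.0792). Here 1 of 4 genes was called in iWAT (Fgf21), where 10% of all genes were, and 0 of 4 in eWAT, where 10.8% were. In that eWAT contrast 1 gene, Fgf21, had an unadjusted p under 0.05, and limma voom called 1 and DESeq2 0.

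Whether the knockdown acted differently in aKO and Cont was tested as an interaction. Cebpb itself stood lower in aKO than in Cont with siC/EBPb. Its own interaction was -0.90 ± 0.25 in iWAT and -0.74 ± 0.22 in eWAT (edgeR adjusted p = 0.0522 and 0.0562). The part of an unequal depth of knockdown in the interactions of other genes was not tested. For Fgf21 the difference in log2 fold change was 1.35 ± 0.57 in iWAT (edgeR adjusted p = 0.210, 95% interval 0.24 to 2.46) and 0.77 ± 0.38 in eWAT (adjusted p = 0.254, 0.02 to 1.51). These values contain the siNS genotype difference by which the list was chosen and are not independent of it. No interaction was called for any of the 4 genes by edgeR, DESeq2 or limma voom in either depot, against 3.51% of all genes in iWAT and 6.34% in eWAT by edgeR. At an unadjusted p under 0.05 the count was 1 of 4 in iWAT (Fgf21) and 0 in eWAT. For Fgf21 in eWAT the unadjusted p of the edgeR F test was 0.0544. The 95% interval there leaves out 0 only because it uses the normal distribution and is narrower than that test implies. The smaller genotype difference with siC/EBPb is therefore a comparison of values and not a tested difference.

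Ordered by mean level, Fgf21 ran from eWAT Cont siC/EBPb at 5.23 CPM through iWAT Cont siC/EBPb at 4.23 and eWAT aKO siC/EBPb at 3.69 to iWAT aKO siC/EBPb at 2.71 CPM. Then came eWAT Cont siNS at 1.41, iWAT Cont siNS at 1.10, eWAT aKO siNS at 0.574 and iWAT aKO siNS at 0.191 CPM. Libraries of iWAT Cont siC/EBPb overlapped those of the groups before and after it. The Cont siNS groups of the depots overlapped each other, and the other neighbours did not overlap. For iWAT aKO siNS this rests on its 2 deeper libraries. Between depots Fgf21 was not called, with log2 fold changes of iWAT over eWAT between -1.04 ± 0.56 (aKO siNS) and -0.28 ± 0.18 (Cont siC/EBPb). The protein-coding genes whose log2 CPM ran most like Fgf21 over the 23 deeper libraries were Lbh (r = 0.967), Map3k7cl (0.966) and Hs6st1 (0.966), among 13128 compared. These libraries share the groups, so such values describe a shared pattern over groups.

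Gdf15 stayed at 9 to 16 CPM in every library while Fgf21 moved. In iWAT aKO cultures it stood at 9.86, 9.15 and 11.9 CPM with siC/EBPb, against 9.02, 15.8 and 12.4 CPM with siNS, where 15.8 CPM rests on 8 reads of the shallow library (6.81 to 31.1 CPM, exact 95% Poisson interval). In iWAT Cont cultures it stood at 9.59, 9.94 and 10.4 CPM with siC/EBPb, against 10.8, 9.89 and 11.2 CPM with siNS. The groups overlapped in both genotypes.

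In eWAT aKO cultures Gdf15 stood at 14.3, 10.8 and 12.6 CPM with siC/EBPb, against 13.0, 12.6 and 14.2 CPM with siNS. In eWAT Cont cultures it stood at 14.1, 13.0 and 15.4 CPM with siC/EBPb, against 12.4, 11.7 and 12.2 CPM with siNS. Of these knockdown pairs the eWAT Cont groups did not overlap, with a log2 fold change of 0.22 ± 0.12 that missed the threshold (edgeR adjusted p = 0.162). The 95% intervals of the knockdown effect ran from -0.37 to 0.18 in iWAT aKO, -0.34 to 0.18 in iWAT Cont, -0.31 to 0.15 in eWAT aKO and -0.00 to 0.45 in eWAT Cont, so rises of the size of Fgf21 lie outside them.

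By genotype, the log2 fold change of Gdf15 in aKO over Cont was 0.05 ± 0.14 in iWAT and 0.13 ± 0.12 in eWAT with siNS (edgeR adjusted p = 0.890 and 0.480). With siC/EBPb it was 0.03 ± 0.13 in iWAT and -0.17 ± 0.11 in eWAT (edgeR adjusted p = 0.934 and 0.441). The siNS libraries of eWAT aKO lay just above those of eWAT Cont, and the others overlapped. None of these values passed an unadjusted p under 0.05.

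With all libraries, Gdf15 was the one gene of the 4 with a depot difference called by edgeR. In Cont siC/EBPb cultures it averaged 9.99 ± 0.42 CPM in iWAT and 14.2 ± 1.2 CPM in eWAT (SD, n = 3 each), a log2 fold change of -0.50 ± 0.12 (SE, edgeR adjusted p = 0.0240). The libraries did not overlap, and 3.35% of all genes were called in this contrast. The call was lost without any 1 of the libraries eWAT Cont siC/EBPb replicate 1 or 3, or iWAT Cont siC/EBPb replicate 1, 2 or 3, with adjusted p up to 0.173. In the other depot contrasts the log2 fold change of Gdf15 was -0.19 ± 0.13 in Cont siNS, -0.28 ± 0.14 in aKO siNS and -0.30 ± 0.12 in aKO siC/EBPb, none past the threshold. In those contrasts 0 of 4 genes were called, against 1.2%, 0.352% and 1.44% of all genes in that order. At an unadjusted p under 0.05 the counts were 1, 1 and 3 of 4, limma voom called 1 in each (Fgfr1) and DESeq2 0. The shares of all genes depended on the shallow library. With it edgeR called 178, 52 and 213 of all genes in these contrasts, and without it 1144, 776 and 1464. In Cont siC/EBPb it called 496 with that library and 1678 without it. These depot tests did not pair libraries of the same number. The genes most like Gdf15 over the 23 libraries were Snrpd3 (r = 0.888), Taf1a (0.853) and Mks1 (0.832).

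Klb, the gene of the co-receptor that makes cells responsive to FGF21, ran opposite to Fgf21 in the aKO cultures. In iWAT aKO it stood at 1.38, 2.68 and 3.78 CPM with siC/EBPb (18, 38 and 45 reads), against 6.36, 7.89 and 4.79 CPM with siNS (74, 4 and 63 reads). In eWAT aKO it stood at 0.982, 3.32 and 3.18 CPM with siC/EBPb (15, 45 and 46 reads), against 4.23, 4.73 and 5.69 CPM with siNS (55, 70 and 88 reads). The siC/EBPb libraries lay below the siNS libraries in both depots, and the 4 reads of the shallow library allow 2.15 to 20.2 CPM (exact 95% Poisson interval).

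In iWAT Cont cultures Klb stood at 1.23, 1.41 and 2.33 CPM with siC/EBPb, against 1.97, 2.77 and 1.68 CPM with siNS. In eWAT Cont cultures it stood at 2.11, 1.32 and 1.93 CPM with siC/EBPb, against 2.39, 3.05 and 1.64 CPM with siNS. The Cont groups overlapped in both depots.

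**Figure D3:**
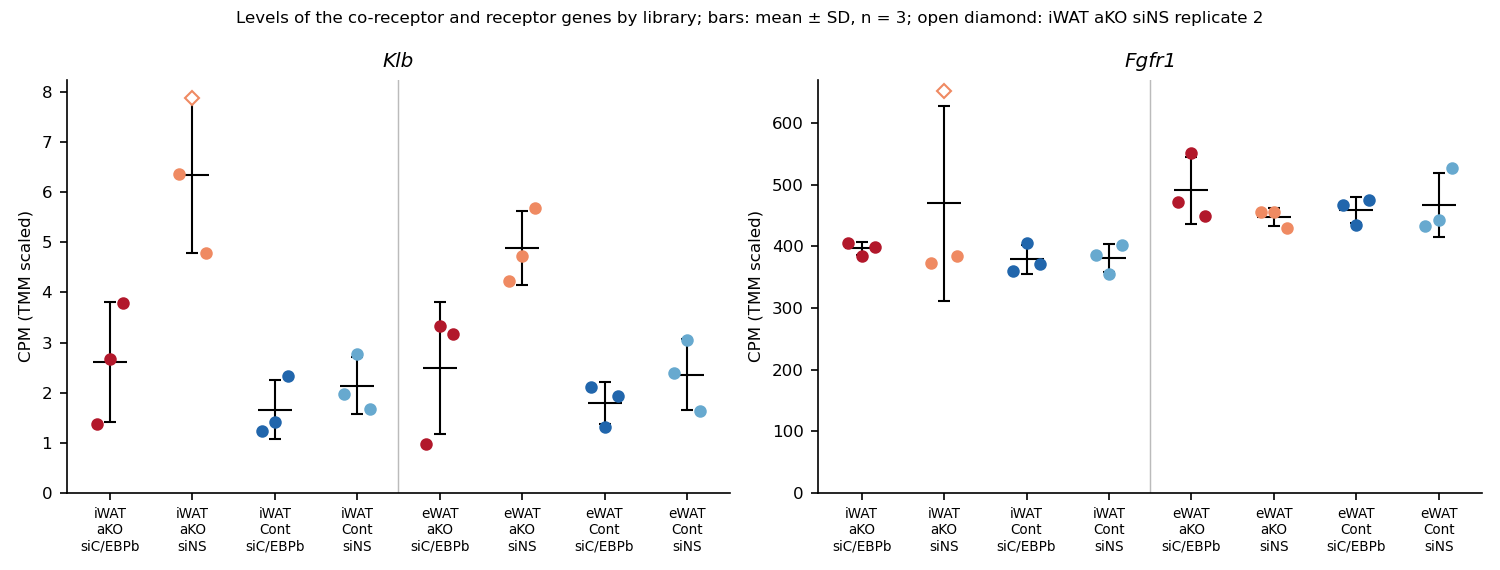
Levels of Klb and Fgfr1 in CPM (vertical axes, from 0) in the 8 groups (horizontal axis); points are libraries, bars the mean ± SD of 3, and the open diamond is the shallow library. For Klb the 6 aKO siNS libraries lie at 4.23 CPM or above and all other libraries at 3.78 CPM or below; Fgfr1 lies between 356 and 552 CPM apart from the shallow library at 653 CPM.

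In aKO cultures Klb fell with siC/EBPb by 1.12 ± 0.35 on the log2 scale in iWAT (SE, edgeR adjusted p = 0.0158) and by 0.99 ± 0.31 in eWAT (adjusted p = 0.0150). Without the shallow library the iWAT value was -1.09 ± 0.36 (edgeR adjusted p = 0.0221). The iWAT call was lost without iWAT aKO siC/EBPb replicate 1 (adjusted p = 0.0882) or iWAT aKO siNS replicate 1 (0.128). The eWAT value moved to -0.59 without eWAT aKO siC/EBPb replicate 1 (adjusted p = 0.100), and the call was also lost without eWAT aKO siNS replicate 3 (0.0707). In Cont cultures the log2 fold changes of -0.37 ± 0.43 in iWAT and -0.40 ± 0.37 in eWAT did not pass (edgeR adjusted p = 0.610 and 0.481). The difference between genotypes was itself not called, at -0.75 ± 0.56 in iWAT and -0.59 ± 0.49 in eWAT (edgeR adjusted p = 0.550 and 0.547).

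With siNS, Klb was higher in aKO, at 6.35 ± 1.55 CPM, than in Cont, at 2.14 ± 0.56 CPM, in iWAT (SD, n = 3 each). In eWAT it averaged 4.89 ± 0.74 CPM in aKO and 2.36 ± 0.71 CPM in Cont. It rose in aKO by 1.38 ± 0.37 on the log2 scale in iWAT (SE, edgeR adjusted p = 0.0129) and by 1.05 ± 0.31 in eWAT (adjusted p = 0.0190), and aKO and Cont libraries did not overlap. It was 1.35 ± 0.39 in iWAT without the shallow library (edgeR adjusted p = 0.0179). The iWAT call was lost without iWAT aKO siNS replicate 1 (adjusted p = 0.0999) or iWAT Cont siNS replicate 1 (0.0572). The eWAT call was lost without eWAT aKO siNS replicate 3 (0.0948), eWAT Cont siNS replicate 1 (0.0564) or eWAT Cont siNS replicate 3 (0.0928). This contrast and the knockdown contrast in aKO share the aKO siNS libraries, so their opposite signs are not independent.

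With siC/EBPb the log2 fold change of Klb in aKO over Cont was 0.63 ± 0.40 in iWAT and 0.46 ± 0.37 in eWAT, with overlapping libraries and no call (edgeR adjusted p = 0.428 and 0.544). The groups other than aKO siNS ran from 2.61 CPM in iWAT aKO siC/EBPb to 1.66 CPM in iWAT Cont siC/EBPb and overlapped each neighbour in that order. Between depots the log2 fold change of Klb lay between -0.14 ± 0.39 (Cont siNS) and 0.19 ± 0.31 (aKO siNS), with no call. The genes most like Klb over the 23 libraries were Cyp2f2 (r = 0.926) and the collagen VI genes Col6a1 (0.891) and Col6a2 (0.891).

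The adipocyte markers moved beside Klb. Their summed level with siNS was 3354 to 4065 CPM in iWAT aKO and 2379 to 3195 CPM in iWAT Cont, and 2811 to 3129 CPM in eWAT aKO and 1986 to 2575 CPM in eWAT Cont. Of the 10 markers, 1 rose in iWAT (Slc2a4) and 4 in eWAT (Slc2a4, Adipoq, Pnpla2 and Lep) with aKO. There 15.2% and 20.4% of all genes were called. With siC/EBPb the sums were 837 to 1548 CPM in iWAT aKO and 1372 to 1783 CPM in iWAT Cont, and 722 to 1354 CPM in eWAT aKO and 1080 to 1470 CPM in eWAT Cont. Their part in the Klb result was not tested.

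Fgfr1, the receptor gene, was the most abundant of the 4 and was called in no contrast by edgeR with all libraries. In iWAT aKO it stood at 405, 385 and 400 CPM with siC/EBPb, against 373, 653 and 384 CPM with siNS, of which 653 CPM is the shallow library. In iWAT Cont it stood at 360, 406 and 371 CPM with siC/EBPb, against 386, 356 and 402 CPM with siNS. These groups overlapped.

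In eWAT aKO Fgfr1 stood at 473, 552 and 449 CPM with siC/EBPb, against 457, 455 and 430 CPM with siNS. In eWAT Cont it stood at 467, 435 and 475 CPM with siC/EBPb, against 433, 442 and 528 CPM with siNS. The groups overlapped here too. Without the shallow library the knockdown value in iWAT aKO was 0.075 ± 0.078 and that of aKO over Cont in iWAT with siNS -0.017 ± 0.079. The 95% intervals of the knockdown effect with all libraries were -0.43 to 0.10 in iWAT aKO, -0.26 to 0.24 in iWAT Cont, -0.11 to 0.38 in eWAT aKO and -0.28 to 0.22 in eWAT Cont on the log2 scale. For aKO over Cont they were -0.04 to 0.48 in iWAT and -0.31 to 0.18 in eWAT with siNS, and -0.19 to 0.32 in iWAT and -0.15 to 0.35 in eWAT with siC/EBPb.

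Fgfr1 was lower in iWAT than in eWAT in 3 conditions by values that did not pass. The log2 fold change was -0.30 ± 0.13 in Cont siNS, -0.28 ± 0.13 in Cont siC/EBPb and -0.31 ± 0.13 in aKO siC/EBPb (SE, edgeR adjusted p = 0.263, 0.232 and 0.204), and the depots did not overlap. Without the shallow library, which is in none of these groups but enters the shared estimate of spread, the values were -0.31, -0.28 and -0.30 and each passed (edgeR adjusted p = 0.00563, 0.00789 and 0.00693). In aKO siNS the value was -0.01 ± 0.13 with the shallow library, and -0.25 ± 0.08 without it (edgeR adjusted p = 0.0567). The genes most like Fgfr1 over the 23 libraries were Midn (r = 0.940), Trrap (0.935) and Ndst1 (0.924).

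**Figure D4:**
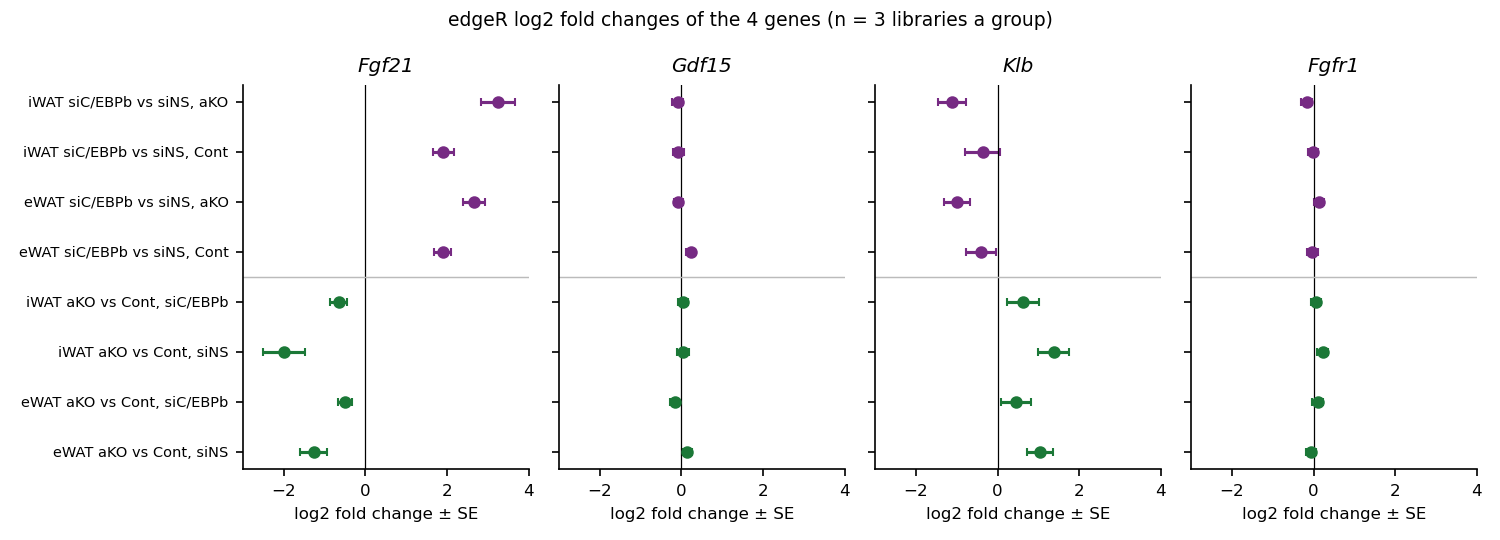
Log2 fold changes (horizontal axes) of the 4 genes with their SE (bars) in the knockdown contrasts (purple) and the genotype contrasts (green), 3 libraries a group. Fgf21 lies at 1.89 to 3.26 in the knockdown contrasts and at -2.0 to -0.50 in the genotype contrasts, Klb runs the other way with smaller values, and Gdf15 and Fgfr1 stay between -0.17 and 0.22.

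Per kilobase of exon the genes can be set beside each other. In iWAT aKO siC/EBPb cultures Fgfr1 averaged 40.2 CPM per kb, Gdf15 5.56, Fgf21 2.85 and Klb 0.574. In iWAT Cont siNS cultures Fgfr1 averaged 38.6, Gdf15 5.73, Fgf21 1.16 and Klb 0.471 CPM per kb. The level of Fgfr1 per kb was thus far above that of Klb in each group, and Fgf21 was above Klb with either siRNA in Cont and with siC/EBPb in aKO. In aKO siNS cultures Fgf21 averaged 0.2 CPM per kb in iWAT and 0.604 in eWAT, and Klb 1.4 and 1.07 CPM per kb, so there Klb was the higher of the pair.

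The stress pathway that can raise both ligand genes was described by a list of 24 genes of the integrated stress response, all of them tested. With siC/EBPb 18 rose and 0 fell in iWAT aKO, 19 rose and 1 (Ddit4) fell in iWAT Cont, 20 rose and 0 fell in eWAT aKO, and 22 rose and 0 fell in eWAT Cont (edgeR adjusted p under 0.05). The list medians of the log2 fold change were 0.59, 0.54, 0.61 and 0.60 in that order, against medians of all tested genes between -0.01 and 0.02. Of all tested genes 31.3%, 24.3%, 35.7% and 26.8% were called in the same order. Across the alternatives the number of list genes called stayed between 12 and 22, 18 and 21, 17 and 21, and 18 and 23.

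Leading members were Chac1, a glutathione-degrading enzyme, Slc7a5, an amino acid transporter, and Cth, an enzyme of cysteine synthesis. Slc7a5 averaged 245 CPM with siC/EBPb and 93.4 CPM with siNS in iWAT Cont, a log2 fold change of 1.39 ± 0.10 (SE, edgeR adjusted p = 4.32e-11). Chac1 averaged 29.8 CPM with siC/EBPb and 7.06 CPM with siNS in eWAT aKO, a log2 fold change of 2.09 ± 0.11 (edgeR adjusted p = 3.52e-14). Cth averaged 29.2 CPM with siC/EBPb and 6.68 CPM with siNS in the same groups (log2 fold change 2.13 ± 0.12, edgeR adjusted p = 8.94e-14). Gdf15, which is known as a target of the same pathway, was called in none of these 4 contrasts. The part of this pathway in the Fgf21 and Gdf15 values of any contrast was not tested.

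By genotype with siNS the list went the other way: 0 rose and 12 fell in iWAT, and 1 rose and 11 fell in eWAT, of 24. The medians were -0.26 in iWAT and -0.19 in eWAT, where 15.2% and 20.4% of all genes were called. Cth fell in aKO by 0.78 ± 0.16 in iWAT and 0.96 ± 0.13 in eWAT (edgeR adjusted p = 0.000808 and 3.67e-06), and Mthfd2, a mitochondrial folate enzyme, by 0.34 ± 0.08 and 0.27 ± 0.07. The number called in iWAT was 6 without iWAT Cont siNS replicate 2, 7 without iWAT Cont siNS replicate 3 or iWAT aKO siNS replicate 3, and 0 when the contrast's own groups were fitted alone. The number called in eWAT was 7 without eWAT aKO siNS replicate 2. With siC/EBPb 0 rose and 4 fell in each depot (Atf3, Trib3, Vldlr and Ddit3), with medians of -0.02 in iWAT and -0.06 in eWAT, where 10% and 10.8% of all genes were called. The iWAT number was 2 without iWAT aKO siC/EBPb replicate 1 or iWAT Cont siC/EBPb replicate 2 or 3, 8 by limma voom and 9 with the contrast's own groups alone, and the eWAT number was 7 without the shallow library.

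**Figure D5:**
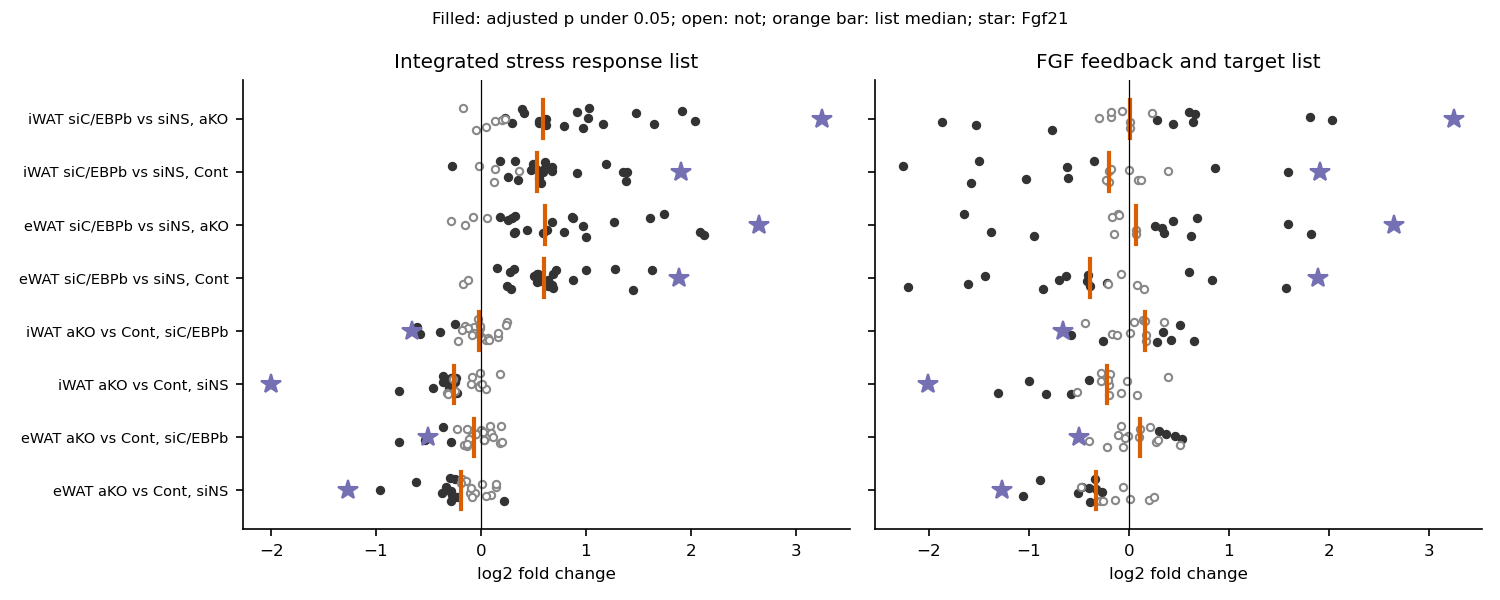
Log2 fold changes (horizontal axes) of the 24 genes of the integrated stress response list and the 17 genes of the FGF feedback list in 8 contrasts; each point is a gene, filled where called, the orange bar is the list median and the star is Fgf21. In the knockdown contrasts the stress list medians lie at 0.54 to 0.61 and Fgf21 lies beyond the list's highest gene in each; the feedback list has members on both sides of 0.

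Of the 4 eIF2α kinase genes, 1 rose and 0 fell with siC/EBPb in iWAT aKO, and 1 rose and 1 fell in each of the other 3 knockdown contrasts. The one that rose was Eif2ak2, the kinase that senses double-stranded RNA, by 0.55 ± 0.12 in iWAT aKO, 0.52 ± 0.12 in iWAT Cont, 0.52 ± 0.11 in eWAT aKO and 0.35 ± 0.11 in eWAT Cont. Of all genes 31.3%, 24.3%, 35.7% and 26.8% were called in that order. By genotype edgeR called 0 of the 4 kinase genes in each contrast, and limma voom or leaving out the shallow library gave 1 in eWAT with siC/EBPb. Of 10 p53 pathway genes, p53 being another known regulator of Gdf15, 5 rose and 1 fell in iWAT aKO, 4 rose and 1 fell in iWAT Cont, 6 rose and 1 fell in eWAT aKO, and 6 rose and 0 fell in eWAT Cont with siC/EBPb, contrasts in which 31.3%, 24.3%, 35.7% and 26.8% of all genes were called. The number called was 3 in eWAT Cont without eWAT Cont siC/EBPb replicate 3. In iWAT Cont it was 3 without iWAT Cont siNS replicate 2, 8 without the shallow library and 10 by limma voom, and in iWAT aKO it was 2 with the groups alone. Cdkn1a, the cell cycle inhibitor p21, rose by 0.55 ± 0.09, 0.31 ± 0.09, 0.43 ± 0.09 and 0.41 ± 0.09 in that order. By genotype edgeR called 1 of 10 higher in iWAT and 2 in eWAT with siNS, where 15.2% and 20.4% of all genes were called. The iWAT number was 3 without the shallow library, 2 without iWAT aKO siNS replicate 3 or iWAT Cont siNS replicate 2, and the eWAT number 1 without eWAT Cont siNS replicate 1. With siC/EBPb edgeR called 0 of 10 in each depot, with 3 in iWAT and 1 in eWAT at an unadjusted p under 0.05, DESeq2 called 0 in each and limma voom 3 in each. In those contrasts the number was 3 in iWAT and 2 in eWAT without the shallow library, and 1 in eWAT without eWAT aKO siC/EBPb replicate 2. With all libraries edgeR called 10% of all genes there in iWAT and 10.8% in eWAT.

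Of 10 genes for other factors tied to Fgf21 transcription, none rose with siC/EBPb by edgeR, and 6 fell in iWAT aKO, 5 in iWAT Cont, 7 in eWAT aKO and 4 in eWAT Cont. Of all genes 31.3%, 24.3%, 35.7% and 26.8% were called in that order. Cebpa, a sister factor of C/EBPβ, fell by 1.74 ± 0.20 in iWAT aKO and 0.92 ± 0.19 in iWAT Cont, and by 1.62 ± 0.18 in eWAT aKO and 0.79 ± 0.18 in eWAT Cont (log2, SE). Rxra, the partner receptor of the PPARs, and Pparg were higher in aKO with siNS, Rxra by 0.38 ± 0.07 in iWAT and 0.42 ± 0.07 in eWAT and Pparg by 0.63 ± 0.16 and 0.60 ± 0.14 (edgeR adjusted p at most 0.00876). Of the 10 genes, 3 rose and 1 fell in iWAT, and 3 rose and 0 fell in eWAT, in aKO with siNS. There 15.2% and 20.4% of all genes were called. The iWAT number called was 0 when the contrast's own groups were fitted alone, and as low as 1 with a library left out. The eWAT number was 2 without eWAT aKO siNS replicate 3 and 6 without the shallow library.

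On the receiving side, Fgfr2 changed where Fgfr1 was not called. With siNS it was 1.69 ± 0.13 higher on the log2 scale in aKO than in Cont in iWAT and 1.46 ± 0.11 higher in eWAT, at 26.2 ± 3.1 CPM in eWAT aKO and 9.50 ± 1.08 CPM in eWAT Cont (edgeR adjusted p = 2.22e-10 and 1.47e-10). With siC/EBPb it fell by 0.92 ± 0.11 in iWAT aKO and 0.82 ± 0.10 in eWAT aKO, and rose by 0.49 ± 0.13 in iWAT Cont and 0.45 ± 0.12 in eWAT Cont. The interaction was -1.41 ± 0.17 in iWAT and -1.27 ± 0.15 in eWAT (edgeR adjusted p = 2.3e-05 and 7.92e-06). Like Klb it was highest in the aKO siNS groups. The decoy receptor gene Fgfrl1 was higher in aKO with siNS by 0.50 ± 0.10 in iWAT and 0.36 ± 0.08 in eWAT. Fgfr4 and the klotho gene Kl had 8 and 12 reads over all libraries and were not tested. Of the 3 other receptor genes tested, Fgfr2 among them, edgeR called 0 higher and 2 lower with siC/EBPb in iWAT aKO and in eWAT aKO. In iWAT Cont and in eWAT Cont it called 1 higher and 0 lower. The shares of all genes called were 31.3%, 35.7%, 24.3% and 26.8% in that order. Without iWAT Cont siNS replicate 2 the iWAT Cont number was 0. In aKO with siNS 2 rose in iWAT and 3 in eWAT, against 15.2% and 20.4% of all genes.

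Of the 8 other FGF ligand genes tested of 21 listed, Fgf2 was the most abundant and was lower in aKO with siNS, by 0.82 ± 0.13 in iWAT and 0.91 ± 0.12 in eWAT (edgeR adjusted p = 4.75e-05 and 2.32e-06). Fgf10, a growth factor of fat precursors, fell with siC/EBPb in the 4 knockdown contrasts by 1.05 ± 0.10 in iWAT aKO, 0.60 ± 0.10 in iWAT Cont, 1.02 ± 0.10 in eWAT aKO and 0.77 ± 0.10 in eWAT Cont. In all, edgeR called 0 higher and 2 lower with siC/EBPb in iWAT aKO, 0 and 3 in iWAT Cont, 0 and 3 in eWAT aKO, and 0 and 4 in eWAT Cont. Of all genes 31.3%, 24.3%, 35.7% and 26.8% were called in that order. At an unadjusted p under 0.05, 1 was higher in each of these contrasts but eWAT Cont, which had 0. The number called was 1 in iWAT Cont without iWAT Cont siNS replicate 1 and 5 in eWAT aKO without eWAT aKO siC/EBPb replicate 2, and limma voom called 3, 5, 6 and 4 in the order above. By genotype with siNS, 2 rose and 3 fell in iWAT, and 3 rose and 3 fell in eWAT, where 15.2% and 20.4% of all genes were called. With siC/EBPb 1 rose and 2 fell in iWAT, and 1 rose and 4 fell in eWAT, where 10% and 10.8% were. Across the alternatives these 4 numbers called ran from 2 to 7, 4 to 7, 2 to 5 and 4 to 5.

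Of 17 feedback and target genes of FGF receptor signalling, 7 rose and 3 fell with siC/EBPb in iWAT aKO, 2 rose and 7 fell in iWAT Cont, 8 rose and 3 fell in eWAT aKO, and 3 rose and 10 fell in eWAT Cont. Of all genes 31.3%, 24.3%, 35.7% and 26.8% were called in that order. Spry1, a feedback inhibitor, rose by 1.81 ± 0.10 in iWAT aKO, 1.59 ± 0.09 in iWAT Cont, 1.82 ± 0.08 in eWAT aKO and 1.57 ± 0.08 in eWAT Cont. Dusp6, an ERK phosphatase, fell by 0.77 ± 0.15 in iWAT aKO, 1.50 ± 0.12 in iWAT Cont, 0.95 ± 0.13 in eWAT aKO and 1.61 ± 0.11 in eWAT Cont. By genotype with siNS 0 rose and 5 fell in iWAT and 0 rose and 9 fell in eWAT, led by Dusp6, at -1.30 ± 0.13 and -1.06 ± 0.11. With siC/EBPb 5 rose and 2 fell in iWAT, and 4 rose and 0 fell in eWAT, and the iWAT number called dropped to 2 without iWAT Cont siC/EBPb replicate 3, to 3 without iWAT Cont siC/EBPb replicate 2 or iWAT aKO siC/EBPb replicate 1 and to 4 without iWAT aKO siC/EBPb replicate 3. Without the shallow library the numbers called were 8 in iWAT with siNS and 8 in eWAT with siC/EBPb. Of all genes, 15.2% in iWAT and 20.4% in eWAT were called by genotype with siNS and all libraries, and 10% and 10.8% with siC/EBPb.

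The interaction was called for 6 of the 17 in iWAT and 9 in eWAT, each with a positive value, against 3.51% and 6.34% of all genes. The iWAT number was 2 without iWAT aKO siNS replicate 1 or 3, 3 without iWAT aKO siC/EBPb replicate 1, iWAT Cont siC/EBPb replicate 2 or 3 or iWAT Cont siNS replicate 2. The eWAT number was 5 without eWAT aKO siC/EBPb replicate 1, eWAT aKO siNS replicate 2, eWAT Cont siC/EBPb replicate 2 or 3 or eWAT Cont siNS replicate 1. Of the 8 adaptor genes at the receptor, such as Shc1 and Frs2, 0 rose and 2 fell with siC/EBPb in iWAT aKO, 2 rose and 2 fell in iWAT Cont and in eWAT aKO, and 1 rose and 1 fell in eWAT Cont, against 31.3%, 24.3%, 35.7% and 26.8% of all genes called in iWAT aKO, iWAT Cont, eWAT aKO and eWAT Cont. In eWAT Cont the number of adaptor genes called was 0 without eWAT Cont siC/EBPb replicate 2 or eWAT Cont siNS replicate 1 or 2, 1 without eWAT Cont siC/EBPb replicate 1 or 3, and 6 by limma voom. In iWAT aKO it was 1 without iWAT aKO siC/EBPb replicate 2 or iWAT aKO siNS replicate 1, 4 without the shallow library and 5 by limma voom, and in eWAT aKO 2 without eWAT aKO siC/EBPb replicate 3.

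A further list held genes known to rise when FGF21 acts on fat. Slc2a1, the glucose transporter GLUT1, fell with siC/EBPb by 0.29 ± 0.07 in iWAT aKO, 0.81 ± 0.07 in iWAT Cont, 0.29 ± 0.07 in eWAT aKO and 0.77 ± 0.07 in eWAT Cont (edgeR adjusted p at most 0.0028). It was also lower in aKO than in Cont with siNS, by 0.81 ± 0.07 in iWAT and 0.73 ± 0.07 in eWAT. Ppargc1a, the thermogenic coactivator PGC-1α, was higher in aKO with siNS, by 2.65 ± 0.34 in iWAT and 1.96 ± 0.28 in eWAT, and fell with siC/EBPb in aKO by 1.83 ± 0.28 and 1.80 ± 0.27. Ppargc1a was low, with a mean of 1.08 CPM and 323 reads over all libraries. Of the 6 genes listed, 4 were tested, and Ucp1 and Cidea had 1 and 4 reads over all libraries. In aKO with siNS 1 rose and 1 fell in iWAT, and 2 rose and 1 fell in eWAT, where 15.2% and 20.4% of all genes were called. With siC/EBPb 0 rose, and 2 fell in iWAT aKO, 1 in iWAT Cont, 2 in eWAT aKO and 1 in eWAT Cont. Of all genes 31.3%, 24.3%, 35.7% and 26.8% were called in that order.

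For GDF15, the receptor gene Gfral had 1 read over all libraries and was not tested. Its co-receptor gene Ret fell with siC/EBPb in the 4 contrasts, by 1.34 ± 0.18 in iWAT aKO, 1.72 ± 0.19 in iWAT Cont, 1.30 ± 0.16 in eWAT aKO and 2.13 ± 0.18 in eWAT Cont. Among proprotein convertases, enzymes that can cut GDF15 to its mature form, Pcsk5 fell by 1.24 ± 0.12, 1.48 ± 0.11, 1.12 ± 0.11 and 1.50 ± 0.11 in that order, and Pcsk6 rose by 0.69 ± 0.09, 1.05 ± 0.09, 0.85 ± 0.08 and 1.25 ± 0.08. Of the 6 genes tested of this list of 7, 2 rose and 1 fell in aKO with siNS in iWAT, and 1 rose and 3 fell in eWAT. There 15.2% and 20.4% of all genes were called. Fap, a protease that cuts FGF21, was lower in aKO with siC/EBPb by 1.17 ± 0.18 in iWAT and 1.27 ± 0.17 in eWAT.

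Other cell type markers moved with genotype as well. Of all tested genes 15.2% in iWAT and 20.4% in eWAT were called by genotype with siNS, and 10% and 10.8% with siC/EBPb. Of 7 tested leukocyte markers, 2 fell in iWAT and 4 in eWAT in aKO with siNS, and 6 and 7 with siC/EBPb. Of 6 endothelial markers, 1 rose and 3 fell in iWAT and 1 rose and 4 fell in eWAT with siNS. Of 4 tested mesothelial markers 2 fell in each depot, of 6 precursor markers 3 rose and 1 fell in each, and of 6 mural markers 4 fell in iWAT and 2 in eWAT, all with siNS. With siC/EBPb 0 endothelial markers rose and 4 fell in iWAT and 3 fell in eWAT, 3 and 4 mesothelial markers fell, 2 precursor markers fell in each depot, and 1 mural marker rose and 1 fell in each. Of the adipocyte markers 1 (Lep) rose in iWAT with siC/EBPb and 0 in eWAT. Their part in the genotype differences of Fgf21 and Klb was not tested.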

How the data were processed

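Poly(A) RNA of 24 libraries in 8 groups was analysed. Per the submitters' processing notes the tools were CASAVA, cutadapt 2.7, TopHat2 2.1.1, HTSeq and edgeR on GRCm38; their order and settings are not given in the sources used here. The authors deposited whole-number read counts per Ensembl gene, which were used as they stand; 5 counter lines were left out, which held 95.9% of the reads of iWAT aKO siNS replicate 2, the shallow library, and 27.5% to 39.5% elsewhere. The deposited per-library files hold the same counts divided by 1 constant and were not used.

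Groups came from the titles and characteristics. Genes were kept by filterByExpr (minimum count 10), scaled by TMM and tested by edgeR 4.0.16's quasi-likelihood test (robust, 1 fit of 8 groups, R 4.3.3) with Benjamini-Hochberg adjustment over 14785 genes and a threshold of 0.05; SE is the absolute log2 fold change over the square root of F. The 95% intervals of log2 fold changes use that SE and the normal distribution, so they are narrower than the F test implies. The steps were tested on simulated data. Alternatives were DESeq2 1.42.0, limma 3.58.1 voom, DESeq2 size factors, other filters, a replicate block, fits to only the groups compared, and leaving out each library.

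The members and lists were chosen with earlier results of these data known. Named list genes are, per contrast, up to 4 called members with the smallest p, or up to 4 by mean CPM where none is called; a gene so named was followed into the other contrasts, and Ddit4 was named after its values were seen. Same-numbered libraries correlated at -0.504 to 0.139 between genotypes and -0.241 to 0.123 between siRNAs, so numbers were not taken as pairs there. Between depots they correlated at 0.0796 to 0.748, with 10 of 11 pairs above 0.1. These were each of the 3 pairs in Cont siNS and in aKO siC/EBPb, 2 of 2 in aKO siNS and 2 of 3 in Cont siC/EBPb. The depot p-values in the results come from the fit without pairing, so they leave this likeness out. A block within genotype and siRNA was run for the depots as a further alternative.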

Additional observations from a re-analysis of the deposited data

Results flagged for a closer look

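The tests of whether siC/EBPb acted differently in aKO than in Cont were past the threshold (edgeR adjusted p under 0.05) for 24 results among the named genes of the pathway lists. Each value is the log2 effect of siC/EBPb in aKO minus that in Cont, and no explanation was weighed. Of all genes 3.51% in iWAT and 6.34% in eWAT passed this test. Cebpb was lower in aKO than in Cont with siC/EBPb, and the part of that unequal knockdown in these values was not tested.

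Among receptors, Fgfr2 gave -1.41 in iWAT and -1.27 in eWAT, past the threshold under each alternative run. Among feedback and target genes of FGF receptors, Egr1 gave 0.48 in iWAT, past the threshold in 18 of 19 alternatives, and 0.58 in eWAT, in 20 of 20. Dusp4 gave 0.62 in iWAT (17 of 19) and 0.70 in eWAT (20 of 20), and Fosl1 0.73 (11 of 19) and 0.75 (20 of 20). Etv4 gave 1.64 in iWAT (16 of 19) and Etv5 0.67 in eWAT (20 of 20). All of these feedback values are positive.

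Among genes tied to FGF21 action or Fgf21 transcription, Slc2a1 gave 0.52 in iWAT and 0.48 in eWAT, and passed in 19 of 19 and 20 of 20 alternatives. Ppargc1a gave -2.08 and -1.74, and passed in 10 of 18 and 13 of 18 alternatives. Rxra gave -0.35 and -0.33, and passed in 5 of 19 and 12 of 20.

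Among the proteases and receptor genes of the GDF15 list, in eWAT, Furin gave 0.40 (14 of 20 alternatives past the threshold), Pcsk6 -0.41 (12 of 20) and Ret 0.82 (10 of 20).

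Among integrated stress response genes, Cth gave 0.66 in iWAT, past the threshold in 7 of 19 alternatives, and 0.85 in eWAT, where it passed in 20 of 20. Ddit3 gave -0.51 and Slc7a11 0.73 in eWAT, each past it in 20 of 20. Mthfd2 gave 0.41 in iWAT and passed in 14 of 19.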

How the results depend on the processing

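The knockdown rises of Fgf21 kept their direction and stayed past the threshold under every alternative run. For the genotype difference in Fgf21 with siC/EBPb, the log2 fold change in iWAT was -0.62 without the filter (edgeR adjusted p = 0.0574), -0.66 by DESeq2 (0.114) and -0.66 with its own groups fitted alone (0.0644), none past the threshold. In eWAT it was -0.55 by limma voom (adjusted p = 0.0444), which passed. With siNS in iWAT the value was -1.99 with the groups alone. Klb in iWAT aKO with siC/EBPb over siNS was -1.11 with the groups alone (edgeR adjusted p = 0.0518). The cause of these changes was not tested.

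Values near 0 changed sign. By limma voom the log2 fold change of Fgfr1 with siC/EBPb over siNS was 0.041 in iWAT aKO and 0.023 in eWAT Cont, and its iWAT interaction 0.053; without the filter its iWAT Cont value was 0.011. The iWAT interaction of Gdf15 was 0.0051 without the filter and 0.0033 with a stricter one. For iWAT over eWAT, Fgfr1 passed by limma voom at -0.26 in Cont siNS, -0.30 in Cont siC/EBPb, -0.23 in aKO siNS and -0.26 in aKO siC/EBPb, and with the groups alone at -0.29 in Cont siNS and -0.27 in Cont siC/EBPb. In aKO siNS it was 0.030 by DESeq2 and 0.045 with the groups alone.

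With the replicate block each call on the 4 genes stayed on its side of the threshold and each count of called genes within 1.5 times, and the pairing changed the signs of 2 uncalled Gdf15 values in iWAT, at -0.0075 for aKO over Cont with siNS and 0.041 for the interaction. For the depots, a block within genotype and siRNA, chosen after seeing the data, called 119 genes in aKO siC/EBPb. With that block each of the 16 depot results of the 4 genes kept its sign and its side of the threshold.

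The number of all genes called moved by over 1.5 times as follows. By limma voom it was 2568 for iWAT aKO over Cont with siC/EBPb, 5938 for the eWAT Cont knockdown, 1235 and 2059 for the iWAT and eWAT interactions, and 852, 3635, 1091 and 647 for the depots in Cont siNS, Cont siC/EBPb, aKO siNS and aKO siC/EBPb. With the groups alone it was 743 for iWAT aKO over Cont with siNS, 2374 for the iWAT aKO knockdown, 290 for the iWAT interaction, and 709, 3045 and 0 for the depots in Cont siNS, Cont siC/EBPb and aKO siNS. Without the filter it was 921 for the iWAT interaction and 542, 138 and 521 for the depots in Cont siNS, aKO siNS and aKO siC/EBPb. DESeq2 called 88 in aKO siNS.

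Leaving out 1 library at a time gave these ranges of genes called: 1439 to 2750 for iWAT aKO over Cont with siNS, 945 to 2030 with siC/EBPb, 289 to 938 and 451 to 1690 for the iWAT and eWAT interactions, and 31 to 1144, 57 to 1678, 1 to 776 and 19 to 1464 for the depots in the order above. The highest number of each of these ranges came from leaving out the shallow library. For Fgf21 in iWAT aKO over Cont the log2 fold change ran -2.33 to -1.70 with siNS and -0.87 to -0.53 with siC/EBPb. For Klb it ran 1.20 to 1.60 in iWAT and 0.85 to 1.28 in eWAT for aKO over Cont with siNS, -1.45 to -0.79 in iWAT aKO and -1.25 to -0.59 in eWAT aKO for the knockdown, and -0.35 to 0.093, -0.41 to 0.072 and -0.31 to 0.39 for the depots in Cont siNS, Cont siC/EBPb and aKO siC/EBPb. For Gdf15 it ran -0.17 to 0.25 and -0.074 to 0.11 for iWAT aKO over Cont with siNS and siC/EBPb, -0.30 to 0.14 in iWAT aKO and -0.18 to 0.018 in eWAT aKO for the knockdown, -0.22 to 0.20 for the iWAT interaction and -0.55 to -0.42 for the depots in Cont siC/EBPb. For Fgfr1 it ran -0.017 to 0.36 in iWAT and -0.12 to 0.030 in eWAT for aKO over Cont with siNS, -0.31 to 0.075, -0.062 to 0.046 and -0.082 to 0.067 for the knockdown in iWAT aKO, iWAT Cont and eWAT Cont, -0.30 to 0.091 for the iWAT interaction, and -0.35 to -0.20, -0.32 to -0.22, -0.25 to 0.13 and -0.35 to -0.20 for the depots. For Senp2 in iWAT aKO over Cont with siNS it ran -0.13 to 0.0066. The depth of the shallow library and the low counts of Fgf21 and Klb limit what these libraries can resolve.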
